A study of Rattus norvegicus with 24 samples.

Results

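Homeobox transcription factors of regional identity were examined in rat neural stem cells and in cells differentiated from them. The 47 genes are those of the 12187 in the deposited expression table whose symbols belong to the Hox, Pax, Lhx, Irx, Otx, Emx, En, Nkx, Meis, Pbx, Msx, Lmx1, Pou, Zfhx, Tgif and sine oculis homologue families, with Pax6 and Nkx2-2 left out. They were chosen by name and not by any measured value, though earlier results of these data were known when the choice was made. All cells came from Sprague-Dawley rats, and RNA-seq was made of 3 groups with 2 libraries each: cells differentiated with vitamin C (VC+), cells differentiated without it (VC-) and undifferentiated neural stem cells (D0). In the differentiated groups the replicate 1 libraries carry a D4 label and the replicate 2 libraries a D5 label. The labels give no brain region, age, vitamin C dose or sex, and nothing in them tells whether the 2 replicates of a group were grown apart or came from different animals. The p-values therefore cover the spread among these libraries alone, which may be technical. The study looked at vitamin C, expression, DNA modification and enhancers in these cells, and the 18 samples of its other assays were not analysed here.

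Homeobox proteins bind DNA through a shared helical domain and give cells of the neural tube their address along the head-to-tail and back-to-belly axes. Otx and Emx genes act in the forebrain and midbrain, En and Pax genes at the boundary of midbrain and hindbrain, and Hox genes from the hindbrain backwards. Nkx genes pattern the ventral and Msx genes the dorsal side, Meis and Pbx proteins are partners of Hox and other homeoproteins, and class III POU factors act in progenitors and glia. Cultured neural stem cells are known to keep part of the code of the region they came from.

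Expression is given in CPM, the authors' reads per gene scaled by the size of the library, and differences are of log2(CPM + 0.5) with the standard error (SE) of a limma fit on all genes. A gene entered the tests when 2 or more libraries reached 1 CPM, as 11823 genes did, 42 of the 47 among them. The others, Lhx5, Lhx6, Msx2, Nkx2-8 and Pax4, were at 3.09 CPM or below in every library. Listed genes held 4811094 to 6641721 reads in the replicate 1 libraries and 10299321 to 13184601 in the replicate 2 libraries, so a count of 0 allows up to 3 reads, or 0.140 CPM in the deepest library and 0.378 CPM in the shallowest. CPM is not divided by transcript length, so levels are compared between libraries and not between genes.

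Every group carried markers of neural stem cells, although the labels call only D0 cells stem cells. Sox2 stood at 455 and 332 CPM in VC+ cells, 452 and 343 CPM in VC- cells and 363 and 337 CPM in stem cells, for replicate 1 and then replicate 2. Nes, a filament of neural progenitors, stood at 35.3 and 32.5 CPM, 81.6 and 53.5 CPM, and 159 and 116 CPM in these 3 groups. In bulk RNA, fewer cells of a type and less RNA per cell cannot be told apart.

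**Figure D1:**
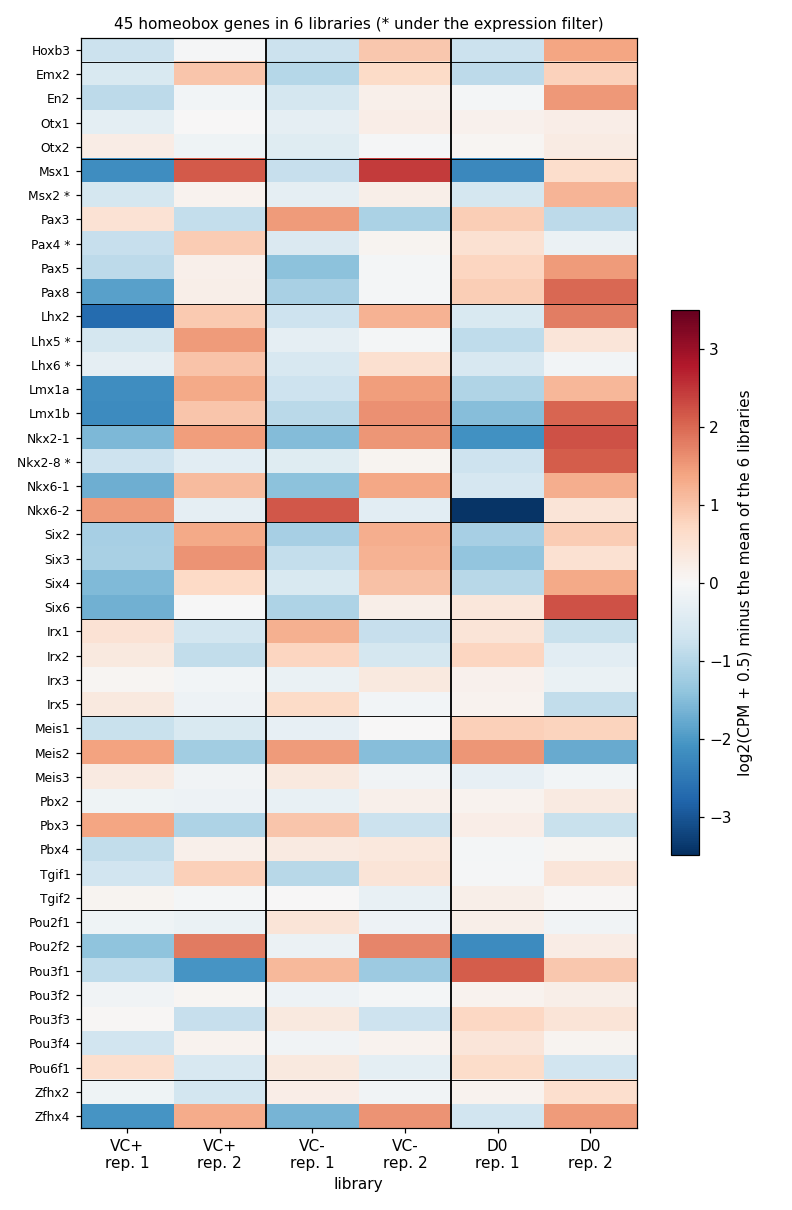
Expression of 45 of the 47 homeobox genes (rows, by family) in the 6 libraries (columns), as log2(CPM + 0.5) minus the gene's mean over the 6 libraries; red is above that mean and blue below, and an asterisk marks the 5 genes under the expression filter. Rows of Six2, Six3, Six4, Nkx2-1, Nkx6-1, Lmx1a and Lmx1b alternate between blue in replicate 1 and red in replicate 2, while the row of Meis1 is red in both D0 libraries and white to blue in the other libraries.

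The replicate sets differed in which regional genes they expressed. In a limma fit with group and replicate number, 24 of the 42 genes tested (57.1%) differed between replicate 2 and replicate 1 at an adjusted p under 0.05, against 25.1% of all genes tested. Each set holds 1 library of each group, so this is 1 set against 1. The p-values measure how alike the difference was in the 3 groups and not the spread between preparations. Of the 24, 17 were higher and 7 lower in replicate 2, against 17.4% and 7.7% of all genes. Some genes passed the filter through 1 replicate set alone and could hardly fail to differ: 6 genes, among them Hoxb3, Nkx2-1, Six2, Six3 and Six4, reached 1 CPM in replicate 2 only, and Pax3 in replicate 1 only. Among the 35 genes with at least 1 CPM in a library of each set, a restriction chosen after the data were seen, 18 were called (51.4%), against 21.8% of all such genes; 12 were higher and 6 lower, against 13.6% and 8.21%. The number of calls depended on which library was left out: 0 homeobox genes were called without VC- replicate 1 or without VC- replicate 2 (58 and 0 of all genes), 8 without VC+ replicate 1 and 10 without VC+ replicate 2 (754 and 731 of all genes), and 28 without D0 replicate 1 or without D0 replicate 2 (4945 and 5049 of all genes). EdgeR and DESeq2 on the recovered reads called 23 and 26 homeobox genes, against 24.4% and 29.1% of all genes. The 2 replicate sets did not overlap for 16 homeobox genes that were higher in replicate 2 and 7 that were lower, against 24.2% and 20.9% of all genes.

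Of the Nkx and LIM genes tested, Nkx2-1, Nkx6-1, Lmx1a, Lmx1b and Lhx2 were higher in replicate 2 and Nkx6-2 was not called. Nkx2-1, which specifies ventral forebrain and hypothalamus, reached 9.88, 10.5 and 17.2 CPM in VC+, VC- and D0 cells of replicate 2, against 0.765, 0.814 and 0.378 CPM in those of replicate 1. Nkx6-1, a ventral neural tube factor, was at 32.6, 38.8 and 36.4 CPM in replicate 2 against 4.21, 5.23 and 9.84 CPM in replicate 1, a log2 difference of 2.48 (SE 0.27, limma adjusted p 0.00666). These 2 genes had no overlap between the replicate sets, though Nkx2-1 reached 1 CPM in replicate 2 only and could hardly fail to differ. The LIM genes Lmx1a and Lmx1b act in the roof plate and in progenitors of midbrain dopamine neurons. Lmx1a was at 19.2, 21.4 and 17.3 CPM in replicate 2 against 1.24, 4.30 and 3.28 CPM in replicate 1, higher by 2.64 (SE 0.35, limma adjusted p 0.0104). Lmx1b was at 9.18, 14.6 and 19.97 CPM against 0.574, 2.09 and 1.26 CPM, higher by 3.08 (SE 0.30, limma adjusted p 0.00567). Lhx2, a cortical and eye field factor, was at 9.04, 11.3 and 17.1 CPM against 0.287, 2.56 and 3.03 CPM. All 3 LIM genes tested were called higher in replicate 2, and the sets did not overlap for any of them.

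Msx1 is a target of bone morphogenetic protein signals in the dorsal midline and neural crest. It stood at 41.8, 52.0 and 14.1 CPM in replicate 2 of VC+, VC- and D0 cells, against 1.63, 4.999 and 1.51 CPM in replicate 1, higher by 3.48 (SE 0.34, limma adjusted p 0.00567). Every replicate 2 library lay above every replicate 1 library. Zfhx4, a giant zinc finger homeobox protein, was at 25.5, 30.9 and 29.3 CPM against 2.01, 2.91 and 6.18 CPM. Emx2, which patterns dorsal telencephalon, was at 5.48, 4.35 and 4.93 CPM against 1.63, 1.05 and 1.14 CPM. Pou2f2, an octamer-binding factor best known from B lymphocytes, was at 15.7, 14.6 and 5.06 CPM against 1.24, 3.49 and 0.504 CPM. For these 3 genes, too, the replicate sets did not overlap. Tgif1, a corepressor of Smad signalling, was at 38.5, 29.6 and 28.8 CPM against 13.1, 10.6 and 20.6 CPM, higher by 1.15 (SE 0.26, limma adjusted p 0.0378), with 0.48 of log2 in stem cells alone. En2 and Pax8 were called higher as well, by 1.07 (SE 0.21, limma adjusted p 0.0252) and 1.44 (SE 0.36, limma adjusted p 0.0465), although the replicate sets overlapped; their values follow with the stem cell comparison.

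The sine oculis homologues Six2, Six3, Six4 and Six6 were called higher in replicate 2. Six2, Six3 and Six4 passed the filter through replicate 2 alone, so their calls follow largely from the filter. Six2, a factor of kidney and craniofacial mesenchyme, stood at 2.29, 2.20 and 1.58 CPM in replicate 2 of VC+, VC- and D0 cells against 0 in every library of replicate 1. Against 3 reads per replicate 1 library, Six2 was 7.99-fold higher in VC+, 6.32-fold in VC- and 4.17-fold in D0 cells. These folds leave out the counting error of the 49, 41 and 24 reads in replicate 2. Six4, a placode and muscle factor, was at 2.29, 3.06 and 3.88 CPM against 0.0957, 0.698 and 0.378 CPM. Six3 and Six6 mark the anterior neural plate and eye field. Six3 was at 3.32, 2.53 and 1.38 CPM against 0.0957, 0.233 and 0 CPM, and Six6 at 4.45, 5.27 and 22.9 CPM against 1.05, 1.86 and 6.05 CPM. Hoxb3, a hindbrain and cervical spinal cord gene, was the only Hox gene among the 47. It had 7, 21 and 26 reads in replicate 2 of VC+, VC- and D0 cells and 0 in replicate 1 of all 3. Limma did not call it (adjusted p 0.0576, with 0.0307 at a pseudocount of 0.1), while DESeq2 did (adjusted p 0.0245).

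Genes lower in replicate 2 came from the Irx, Meis, Pbx, Pou and Pax families. Meis2, a Hox cofactor of forebrain and hindbrain, was at 1.87, 1.45 and 1.12 CPM in replicate 2 of VC+, VC- and D0 cells, against 14.2, 15.0 and 15.5 CPM in replicate 1, a log2 difference of -2.98 (SE 0.27, limma adjusted p 0.00474). Its groups ran from 14.2 to 15.5 CPM in replicate 1 and, on 17 to 40 reads, from 1.12 to 1.87 CPM in replicate 2. Irx1 and Irx2 are neighbours in one Iroquois cluster. Irx1 was at 31.1, 27.7 and 28.0 CPM against 69.7, 115 and 66.2 CPM, and Irx2 at 25.1, 29.6 and 35.2 CPM against 58.6, 77.2 and 77.9 CPM. The second cluster, Irx3 and Irx5, was not called: Irx5 was at 10.4, 10.96 and 6.24 CPM against 15.0, 19.2 and 13.0 CPM (limma adjusted p 0.0547), and Irx3 differed by 0.0024 (SE 0.28). Pbx3 was at 15.8, 20.1 and 19.9 CPM against 90.7, 67.8 and 40.5 CPM, and Pou6f1 at 21.5, 25.3 and 19.97 CPM against 48.7, 41.2 and 49.9 CPM. These 2 genes were called lower, with log2 differences of -1.74 (SE 0.30) and -1.05 (SE 0.18) and limma adjusted p of 0.0197 and 0.0183. Pou3f1 was also called lower, at -1.58 (SE 0.33, limma adjusted p 0.0303), with overlap. Pou3f3, at -0.72 (SE 0.19) with overlap, was called by DESeq2 (adjusted p 0.0315) and not by limma (adjusted p 0.0513). Pax3, a dorsal neural tube and neural crest factor, rested on 5, 2 and 3 reads in replicate 2 against 14, 27 and 15 reads in replicate 1. It passed the filter through replicate 1 alone.

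Promoters are shown for 2 genes of each direction because DNA methylation, which the study profiled, falls on CG pairs. The windows are 250 bases before to 50 bases after the start, from RefSeq on the GRCr8 build, which is not the rn5 build named by the authors. CG pairs are in capitals. Irx1 (chr1:33122872-33123171, plus strand, 35 CG pairs) and Irx2 (chr1:32494881-32495180, minus strand, 25) were lower in replicate 2.
Irx1: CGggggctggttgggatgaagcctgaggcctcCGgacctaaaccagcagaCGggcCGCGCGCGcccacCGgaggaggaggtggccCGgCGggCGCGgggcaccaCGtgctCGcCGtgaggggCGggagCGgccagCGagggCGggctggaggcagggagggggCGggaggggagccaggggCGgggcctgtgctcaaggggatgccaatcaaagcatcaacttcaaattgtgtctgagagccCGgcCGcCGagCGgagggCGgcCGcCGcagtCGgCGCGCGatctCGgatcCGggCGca
Irx2: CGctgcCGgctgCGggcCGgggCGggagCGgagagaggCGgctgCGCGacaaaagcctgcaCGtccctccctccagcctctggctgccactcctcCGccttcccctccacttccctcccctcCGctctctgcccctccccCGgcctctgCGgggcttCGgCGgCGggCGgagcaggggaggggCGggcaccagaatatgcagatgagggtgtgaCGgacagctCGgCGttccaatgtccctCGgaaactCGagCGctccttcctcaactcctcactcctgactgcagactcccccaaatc
Lmx1b (chr3:37338508-37338807, minus strand, 54 CG pairs) and Msx1 (chr14:77185552-77185851, plus strand, 34) were higher in replicate 2.
Lmx1b: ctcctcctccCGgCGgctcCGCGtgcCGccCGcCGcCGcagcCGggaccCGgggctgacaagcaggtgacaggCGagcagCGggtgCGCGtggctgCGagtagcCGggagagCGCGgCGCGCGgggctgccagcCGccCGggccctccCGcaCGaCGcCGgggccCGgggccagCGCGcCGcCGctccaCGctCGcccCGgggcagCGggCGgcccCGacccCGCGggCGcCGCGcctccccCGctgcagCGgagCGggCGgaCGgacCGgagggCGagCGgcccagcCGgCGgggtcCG
Msx1: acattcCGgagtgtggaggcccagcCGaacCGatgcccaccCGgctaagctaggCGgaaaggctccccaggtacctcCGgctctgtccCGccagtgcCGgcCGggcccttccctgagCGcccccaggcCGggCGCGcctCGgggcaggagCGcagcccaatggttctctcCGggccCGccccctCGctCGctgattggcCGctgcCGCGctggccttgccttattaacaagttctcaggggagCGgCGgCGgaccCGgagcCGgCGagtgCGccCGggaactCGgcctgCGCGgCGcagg
Among the 9212 genes of the table with such a window the median was 21 CG pairs, and 0.597% had at least as many as Lmx1b. A window was found for 32 of the 47 genes. Called genes higher in replicate 2 had a median of 21 CG pairs (n = 13), those lower a median of 22 (n = 4) and genes not called 20 (n = 11). Searched on both strands, the octamer ATGCAAAT, the homeodomain core TAATTA, the full nuclear factor I palindrome and TATAAA were in 0 of the 32 windows, against 1.64%, 5.35%, 0.0437% and 14.3% of 27456 RefSeq windows. The Hox and Pbx composite TGATTNAT was in 1, that of Nkx6-2, against 3.15%. Those 27456 windows had a median of 7 CG pairs, against 20 in the 32 windows. The shares were thus not matched for CG content. A match is a string of letters and not a bound site.

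**Figure D2:**
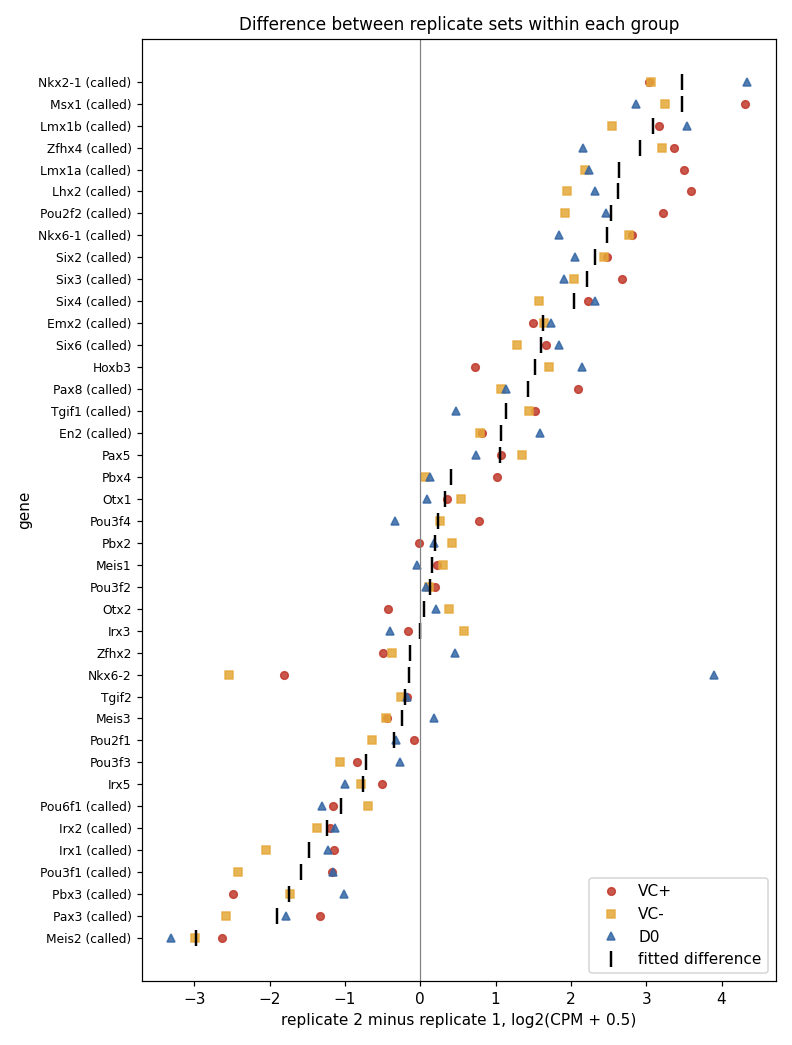
Difference between the replicate sets for 40 of the 42 homeobox genes tested, as replicate 2 minus replicate 1 of log2(CPM + 0.5) on the horizontal axis; circles, squares and triangles give VC+, VC- and D0 cells and the black bar the limma estimate. For the 23 genes marked as called the 3 groups lie on the same side of 0, from Meis2 at -2.98 to Nkx2-1 at 3.48, while Nkx6-2 is at 3.90 in D0 cells and below 0 in both differentiated groups.

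Other cell type markers and depth moved with the replicate sets. All 20 microglia and macrophage genes were called higher in replicate 2, with summed levels of 1049 to 2004 CPM in replicate 2 against 40.9 to 46.4 CPM in replicate 1, where 4 to 10 of the 20 were at 0. Of 20 fibroblast, pericyte and meninges genes, 18 were called higher, with sums of 4877 to 11636 CPM in replicate 2 against 393 to 475 CPM in replicate 1, where 1 or 2 were at 0. Some genes of both lists, such as C1qa and Tbx18, passed the filter through replicate 2 alone. Of 18 oligodendrocyte lineage genes, 12 were called lower, with sums of 870 to 1290 CPM in replicate 2 against 2560 to 14516 CPM in replicate 1. Their part in the homeobox differences was not tested. Of 17 neuronal genes 5 were called higher and 2 lower, of 14 astrocyte genes 3 and 1, and of 10 stem cell genes 3 and 2.

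Other lists were counted between the replicate sets in the same way, beside the 25.1% of all genes called. Among 30 tested factors without a homeobox, 17 were called higher and 5 lower in replicate 2. Zic2, a dorsal neural tube and meningeal factor, was at 66.9, 110 and 58.6 CPM in replicate 2 of VC+, VC- and D0 cells, against 0.287, 0.814 and 0.883 CPM in replicate 1. Gli1, a transcriptional target of Hedgehog signals, was at 18.6, 34.9 and 52.4 CPM against 0.574, 1.63 and 1.77 CPM. Of 31 other homeobox genes, 11 were called higher and 4 lower, and Alx4, a craniofacial mesenchyme factor, was at 4.64, 6.55 and 5.58 CPM against 0 in every library of replicate 1. Zic2 and Alx4 passed the filter through replicate 2 alone and could hardly fail to differ. Of 18 retinoid pathway genes, whose ligand sets Hox expression in the hindbrain, 12 were called higher and 0 lower. Aldh1a2, which makes retinoic acid and is also on the fibroblast and meninges list, was at 65.0, 97.7 and 26.7 CPM against 0.0957, 1.05 and 0.504 CPM. Of 30 Polycomb and trithorax genes, which act on the chromatin of homeobox loci, 1 was called higher and 4 lower, together a smaller share than of all genes. Over all genes 17.4% were called higher and 7.7% lower, so only the higher share was smaller. Ezh2, the Polycomb methyltransferase and 1 of the 4, was at 22.9, 23.0 and 43.5 CPM against 68.1, 74.6 and 90.0 CPM.

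Pou3f1, Pou3f3, Meis1, Six6 and the midbrain-hindbrain genes En2, Pax5 and Pax8 stood lower in both differentiated groups than in stem cells of the same replicate, and none of them passed the limma test. The comparisons of VC+ with D0 and of VC- with D0 share the D0 libraries. The limma test called none of the 11823 genes in either comparison (0% of all genes). Without the replicates as a block, this fit counts the difference between replicate sets as error. The lack of calls does not show that genes did not differ. At an unadjusted limma p under 0.05 there were 507 genes (4.29%) for VC+ and 382 (3.23%) for VC-, of which 2 (Meis1 and Pou3f1) and 1 (Meis1) were homeobox genes. EdgeR called none either, with 505 (4.27%) and 384 (3.25%) at an unadjusted p under 0.05 and the same homeobox genes. DESeq2 called 137 genes for VC+ (1.16%) and 71 for VC- (0.601%), of which 1 and 0 were homeobox genes. At an unadjusted DESeq2 p under 0.05 there were 3 homeobox genes for VC+, Meis1, Pou3f1 and Six6 (7.14%), against 8.14% of all genes, and 1 for VC-, Meis1 (2.38%), against 5.85%. With the replicates as a block, 10 homeobox genes (23.8%) had an unadjusted limma p under 0.05 for VC+, against 15.9% of all genes. For VC- there were also 10 (23.8%), against 13.1%. In VC+ cells 12 of the 42 genes lay below both D0 libraries without overlap (28.6%), against 13.2% of all genes, and 0 lay above them, against 14.2%. In VC- cells 8 lay below (19.0%), against 13.2% of all genes, and 1, Pbx4, above (2.38%), against 13.8%. In both replicates 20 genes were lower in VC+ than in D0 cells (47.6%) and 6 higher (14.3%), against 29.0% and 28.6% of all genes. In VC- cells 15 were lower than in D0 cells in both replicates (35.7%) and 7 higher (16.7%), against 29.5% and 28.6%. Irx5, Msx1, Pou2f2 and Six3 were higher in both comparisons. In replicate 1 Six3 rested on 1, 2 and 0 reads in VC+, VC- and D0 cells, too few to give a direction. Pou2f2 rested there on 13, 30 and 4 reads. Pou2f2, chosen after its values were seen, had a VC- minus D0 of 1.71 and a VC+ minus D0 of 1.17 (SE 1.47 each). DESeq2 with the replicates as a block did not call it (adjusted p 0.0540 for VC- and 0.255 for VC+). The median log2 difference over the 42 genes was -0.26 for VC+ minus D0 and -0.10 for VC- minus D0, against 0.013 and 0.0078 over all genes. Of 18 oligodendrocyte lineage genes, 13 were higher in both replicates in VC+ and 14 in VC- than in D0 cells, and their part in these differences was not tested.

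Pou3f1, a factor of glial progenitors and Schwann cells, had the lowest VC+ minus D0 value of the 42 genes. It was at 5.26 and 2.06 CPM in VC+ cells, 23.1 and 3.92 CPM in VC- cells and 45.8 and 20.2 CPM in stem cells, for replicate 1 and then replicate 2. Both VC+ libraries lay below both D0 libraries, while a VC- library overlapped them. VC+ minus D0 was -3.01 (SE 0.97), -3.01 in each replicate, and VC- minus D0 was -1.60 (SE 0.97), -0.97 in replicate 1 and -2.22 in replicate 2. Limma did not call it, alone or with the replicates as a block (adjusted p 0.109 for VC+), and DESeq2 with that block called it in both (adjusted p 4.56e-08 for VC+ and 0.0305 for VC-). VC- minus D0 was -0.39 without VC- replicate 2, -1.02 without D0 replicate 1 and -2.81 without VC- replicate 1, while VC+ minus D0 stayed between -3.59 and -2.42. Pou3f3, a cortical progenitor factor, was at 98.9 and 55.1 CPM in VC+, 123 and 58.4 CPM in VC- and 159 and 132 CPM in stem cells, without overlap in either comparison. VC+ minus D0 was -0.97 (SE 0.47), or -0.55 without VC+ replicate 2, and VC- minus D0 was -0.77 (SE 0.47), or -0.24 without VC- replicate 2 and -1.30 without VC- replicate 1. Pou3f2, a factor of neural progenitors, lay below the D0 libraries by less, at 61.1 and 69.9 CPM, 58.9 and 63.7 CPM, and 73.0 and 77.3 CPM, and Pou3f4 stood at 14.3 and 24.8 CPM, 20.8 and 25.1 CPM, and 31.0 and 24.6 CPM, with overlap.

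Meis1 is a Hox cofactor. It was at 31.0 and 36.3 CPM in VC+ cells, 43.1 and 53.2 CPM in VC- cells and 94.6 and 91.6 CPM in stem cells. The 3 groups did not overlap. VC+ minus D0 was -1.46 (SE 0.22, unadjusted limma p 0.00112) and VC- minus D0 was -0.95 (SE 0.22, unadjusted limma p 0.00741), and neither passed after adjustment (0.974 and 1.00). With 1 library left out at a time the first stayed between -1.57 and -1.35 and the second between -1.10 and -0.80. DESeq2 called Meis1 for VC+ without a block. With the block DESeq2 called 5 homeobox genes for VC+, En2, Meis1, Pou3f1, Pou3f3 and Six6, against 6.53% of all genes, and 4 for VC-, Meis1, Msx1, Pou3f1 and Six6, against 3.87%. Meis3 overlapped between groups; it was at 51.2 and 37.6 CPM, 52.3 and 38.0 CPM, and 33.8 and 38.6 CPM.

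En2, Pax5 and Pax8 are expressed together at the boundary of midbrain and hindbrain. En2 was at 23.3 and 41.4 CPM in VC+ cells, 28.9 and 50.6 CPM in VC- cells and 42.4 and 128 CPM in stem cells. Both VC+ libraries lay below both D0 libraries, while VC- replicate 2 lay above D0 replicate 1. VC+ minus D0 was -1.24 (SE 0.64), -0.85 in replicate 1 and -1.62 in replicate 2, not called by limma, and called by DESeq2 with the block (adjusted p 0.00721). It was -0.44 without D0 replicate 2 and -2.03 without D0 replicate 1. VC- minus D0 was -0.94 (SE 0.64), chosen after the values were seen, and -0.14 without D0 replicate 2, -0.54 without VC- replicate 1 and -1.73 without D0 replicate 1. Pax8 was at 0 and 1.64 CPM, 0.349 and 1.29 CPM, and 2.90 and 6.96 CPM in these groups, and Pax5 at 0.383 and 1.36 CPM, 0.116 and 1.07 CPM, and 2.27 and 4.14 CPM. Neither gene overlapped between differentiated and stem cells. In replicate 1 they rested on 0, 3 and 23 reads for Pax8 and 4, 1 and 18 reads for Pax5, in the order VC+, VC- and D0. The comparisons of these 2 genes with stem cells were chosen after their values were seen, and DESeq2 with the block did not call them (adjusted p 0.0598 and 0.192 for Pax8, 0.312 and 0.160 for Pax5, VC+ and then VC-). Otx1, a forebrain and midbrain factor, was at 11.4 and 14.7 CPM in VC+, 11.6 and 17.1 CPM in VC- and 16.1 and 17.2 CPM in stem cells, without overlap between VC+ and D0.

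Six6 was at 1.05 and 4.45 CPM in VC+ cells, 1.86 and 5.27 CPM in VC- cells and 6.05 and 22.9 CPM in stem cells, without overlap, and DESeq2 with the block called both comparisons (adjusted p 0.00024 for VC+ and 0.00908 for VC-). VC+ minus D0 was -2.16 (SE 0.97), or -1.24 without D0 replicate 2 and -1.32 without VC+ replicate 1. VC- minus D0 was -1.75 (SE 0.97), or -0.83 without D0 replicate 2, -1.10 without VC- replicate 1 and -2.67 without D0 replicate 1. Msx1 was called between VC- and stem cells by DESeq2 with the block and not by limma. It was at 1.63 and 41.8 CPM in VC+, 4.999 and 52.0 CPM in VC- and 1.51 and 14.1 CPM in stem cells. VC- minus D0 was 1.65 (SE 1.95), 1.45 in replicate 1 and 1.84 in replicate 2 (DESeq2 with the block, adjusted p 0.0189). It was 0.019 without VC- replicate 2, 0.22 without D0 replicate 1, 3.08 without D0 replicate 2 and 3.27 without VC- replicate 1. These fits have no block, so with 1 library left out the group means also differ in replicate set. With the block in limma the SE was 0.42 for Msx1, 0.32 for Six6 and 0.25 for En2. VC+ minus D0 was 0.81 (SE 1.95), 0.079 in replicate 1, on 17 reads against 12, and 1.53 in replicate 2, and DESeq2 with the block did not call it (adjusted p 0.368). The groups of Msx1 overlapped, and its replicates lay further apart than its groups. Nkx6-2 is a factor of maturing oligodendrocytes. It was at 14.6 and 3.84 CPM in VC+, 23.9 and 3.71 CPM in VC- and 0 and 6.96 CPM in stem cells. It was above stem cells in replicate 1 and below them in replicate 2. The 18 oligodendrocyte lineage genes summed to 12037 and 1119 CPM in VC+, 14516 and 1290 CPM in VC- and 2560 and 870 CPM in stem cells, and their part in the Nkx6-2 values was not tested.

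Promoters of Meis1 and En2 are shown as genes lower in VC+ than in stem cells, in the same format. Meis1 lies at chr14:97495034-97495333 on the minus strand with 9 CG pairs, and En2 at chr4:7960744-7961043 on the minus strand with 33.
Meis1: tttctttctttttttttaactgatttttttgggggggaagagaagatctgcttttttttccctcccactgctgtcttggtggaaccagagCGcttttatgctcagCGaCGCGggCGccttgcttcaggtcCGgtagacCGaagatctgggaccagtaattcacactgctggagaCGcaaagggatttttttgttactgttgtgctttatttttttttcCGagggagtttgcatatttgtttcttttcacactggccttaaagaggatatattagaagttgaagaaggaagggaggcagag
En2: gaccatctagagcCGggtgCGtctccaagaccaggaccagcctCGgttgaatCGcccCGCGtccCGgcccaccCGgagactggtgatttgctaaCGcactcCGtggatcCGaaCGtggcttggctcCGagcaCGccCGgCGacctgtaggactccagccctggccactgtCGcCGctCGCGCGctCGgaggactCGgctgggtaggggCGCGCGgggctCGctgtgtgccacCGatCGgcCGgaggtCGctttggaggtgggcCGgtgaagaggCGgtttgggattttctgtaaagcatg
In the table, 83.1% of genes had at least as many CG pairs as Meis1 and 16.3% as many as En2.

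**Figure D3:**
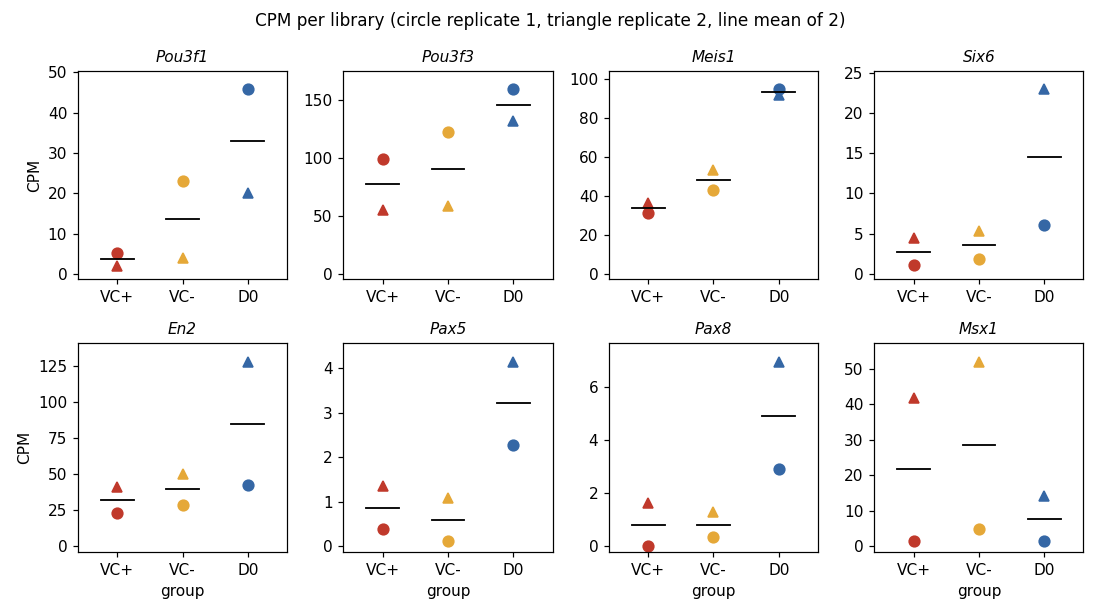
CPM of 8 homeobox genes in each library of VC+, VC- and D0 cells (circle replicate 1, triangle replicate 2, line the mean of 2 libraries, linear axes that differ between panels). Stem cells are highest for Pou3f1, Pou3f3, Meis1, Six6, En2, Pax5 and Pax8 within each replicate, and lowest for Msx1, whose triangles reach 52.0 CPM while its circles stay at or below 4.999 CPM.

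With vitamin C, homeobox genes tended to stand slightly lower than without it, and none passed the limma test. In both replicates 21 of 42 genes were lower in VC+ than in VC- cells (50%), against 26.4% of all genes, and 5 were higher (11.9%), against 30.0%. These counts take the sign alone, and all genes were read in the same libraries, so they are not independent. The 21 include Meis3, at -0.031 and -0.015, and Six4, on 1 read against 6 in replicate 1. The 5 include Pax5, on 4 reads against 1 in replicate 1. The median over the 42 genes was -0.27, -0.33 in replicate 1 and -0.14 in replicate 2, against 0.018, 0 and 0.020 over all genes. Groups without overlap were found for 3 genes, all lower with vitamin C (7.14%), against 7.82% of all genes, and for 0 higher, against 8.15%. Limma and edgeR called 0 of 11823 genes, with 62 (0.524%) and 66 (0.558%) at an unadjusted p under 0.05, none of them a homeobox gene. In simulated data this limma fit, without the replicates as a block, called 0 of 66 genes changed 8-fold. Its count of 0 here therefore does not show that genes did not differ. Its SEs take in the difference between replicate sets, as for Pou3f1 with 0.97, against 0.40 with the block. DESeq2 called 6 genes (0.0507%), or 32 with the replicates as a block (0.271%), and 0 homeobox genes either way. With the block, 2 homeobox genes had an unadjusted limma p under 0.05, Meis1 and Pou3f1, against 3.42% of all genes, and 3 an unadjusted edgeR p under 0.05, those 2 and Lmx1b, against 3.68%. VC- libraries also serve in the comparison with stem cells, so the 2 sets of values are not independent.

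The 3 genes without overlap were Meis1, Zfhx2 and Pbx4. Meis1, at 31.0 and 36.3 CPM in VC+ and 43.1 and 53.2 CPM in VC- cells, differed by -0.51 (SE 0.22), -0.47 in replicate 1 and -0.55 in replicate 2. Its unadjusted p was 0.0687 in limma, and 0.0301 with the replicates as a block, where the limma adjusted p was 1.00. Zfhx2 was at 16.0 and 11.2 CPM in VC+ against 21.4 and 16.4 CPM in VC- cells, a difference of -0.47 (SE 0.35). Pbx4 was at 2.01 and 4.59 CPM against 5.12 and 5.37 CPM, so its difference of -0.68 (SE 0.53) came mainly from replicate 1; it was -0.17 without VC+ replicate 1 and -1.19 without VC+ replicate 2. Zfhx2 was at -0.22 without VC+ replicate 2 and -0.28 without VC- replicate 1. With 1 library left out at a time Meis1 stayed between -0.66 and -0.36.

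Pou3f1 had the lowest VC+ minus VC- value of the 42 genes and was chosen here after its values were seen. It was at 5.26 CPM in VC+ against 23.1 CPM in VC- cells of replicate 1, a ratio of 0.228 with an exact 95% interval of 0.166 to 0.308. In replicate 2 the levels were 2.06 CPM in VC+ against 3.92 CPM in VC- cells, a ratio of 0.525 (0.353 to 0.774). These intervals cover the counting of reads in 1 library against 1 and not the spread between libraries. The log2 difference was -1.41 (SE 0.97), with an unadjusted p of 0.204 in limma and 0.0181 with the block, and DESeq2 with the block gave an adjusted p of 0.288. The difference was -0.20 without VC- replicate 1, -0.83 without VC+ replicate 2 and -2.62 without VC- replicate 2. The LIM genes of the roof plate and forebrain were also lower in both replicates. Lmx1b was at 0.574 and 9.18 CPM in VC+ against 2.09 and 14.6 CPM in VC- cells, and Lhx2 at 0.287 and 9.04 CPM against 2.56 and 11.3 CPM. In replicate 1 Lhx2 rested on 3 reads against 22. Msx1 was at 1.63 and 41.8 CPM in VC+ against 4.999 and 52.0 CPM in VC- cells. Genes higher with vitamin C in both replicates were Emx2, Pax5, Pou3f2, Tgif1 and Tgif2; Tgif1 was at 13.1 and 38.5 CPM in VC+ against 10.6 and 29.6 CPM in VC- cells.

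Gene lists around the homeobox genes were counted in the same way, and limma called 0 members of any list between groups. As a yardstick for the list counts, VC+ stood below VC- in both replicates for 26.4% of the 11823 genes and above it for 30.0%. Of 30 regional factors without a homeobox, 18 were lower and 1 higher in VC+ cells of each replicate, their median log2 difference was -0.42, and limma called 0. Of 20 fibroblast, pericyte and meninges genes, 11 were lower and 0 higher in each replicate, the median was -0.50, and their summed level was 393 and 4877 CPM in VC+ against 475 and 7552 CPM in VC- cells. Of 14 astrocyte genes, 10 were higher and 0 lower in each replicate, with sums of 10255 and 15837 CPM in VC+ against 3503 and 9210 CPM in VC- cells. The part of these lists in the lower homeobox values was not tested. Polycomb and trithorax genes had 7 of 30 members higher and 12 lower in each replicate, and their median was -0.0052. Of 31 other homeobox genes, 6 were higher and 9 lower, and of 18 retinoid pathway genes 5 were higher and 7 lower.

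**Figure D4:**
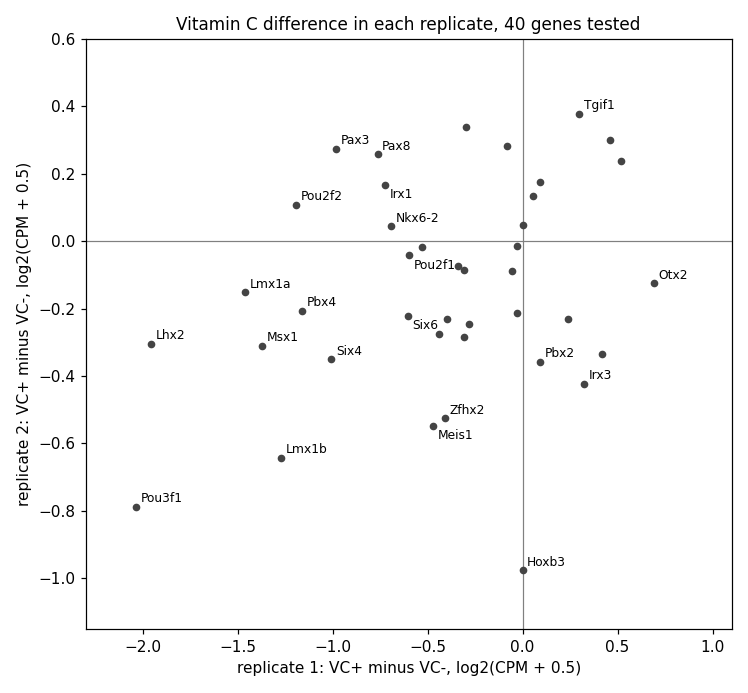
VC+ minus VC- of log2(CPM + 0.5) in replicate 1 (horizontal) and in replicate 2 (vertical) for 40 of the 42 homeobox genes tested; each point is a gene, and genes far from 0 on either axis are named. More points lie at the lower left, with 21 genes below 0 in both replicates, than at the upper right, with 5; Pou3f1 is furthest out at -2.04 and -0.79.

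Pbx2, Pou2f1 and Zfhx2 also lay lower in VC+ than in D0 cells without overlap. Pbx2, a Hox cofactor, was at 55.8 and 54.9 CPM in VC+, 52.3 and 70.5 CPM in VC- and 68.4 and 77.3 CPM in stem cells, with VC+ minus D0 at -0.39 (SE 0.23). Tgif2, a relative of Tgif1, was at 20.4 and 18.0 CPM in VC+, 19.1 and 15.8 CPM in VC- and 21.9 and 19.4 CPM in stem cells, and Irx3 ran between 6.63 and 10.2 CPM over the 6 libraries. Otx2, the head organiser gene of forebrain and midbrain, was at most 1.25 CPM, or 19 reads, in any library. Pou2f1, an octamer factor of most tissues, was at 4.98 and 4.68 CPM in VC+, 7.79 and 4.84 CPM in VC- and 6.43 and 5.06 CPM in stem cells, with VC+ minus D0 at -0.22 (SE 0.44). Zfhx2 in stem cells was at 19.5 and 27.1 CPM, and VC+ minus D0 was -0.76 (SE 0.35), -0.28 in replicate 1 and -1.24 in replicate 2. Pbx4 in stem cells was at 3.78 and 4.20 CPM. For none of these genes did limma call a difference between groups, which does not show that they were equal.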

How the data were processed

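RNA-seq was analysed in 6 libraries, 2 for each of 3 groups. The authors deposited CPM for each gene; per the submitters' processing notes the tools named include STAR 2.5.1 and edgeR 3.12.1 and the build is rn5, with the read counter, annotation and strand setting not given in the sources used here. The kit was TruSeq RNA, per the labels' protocols. In each library all values (100%, relative tolerance 1e-06) were multiples of what 1 read is worth, which gave back whole reads for the count models. These reads made up 60.2% to 67.7% of the scaling total.

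Tests used limma 3.58.1 (trend, two-sided, Benjamini-Hochberg adjusted p under 0.05) on log2(CPM + 0.5), with 3 groups in 1 fit; the replicate difference came from a fit with group and replicate number. An exact permutation test of 2 against 2 cannot go below 0.333 and was not used. The alternatives changed the pseudocount (0.1 or 2), the filter (none, or 5 CPM in 2 libraries), the scaling (median of ratios), the block or the tool (edgeR 4.0.16, DESeq2 1.42.0), or left out 1 library. The fit without the block counts the difference between replicate sets as error. Group comparisons with 1 library left out had no block, so their values also take in part of that difference. Tested on simulated data of the VC+ and VC- comparison, the fit without the block called none of the genes given a change, large ones included. Fits with the block called 11 to 13 of 67 genes changed 2-fold, 58 to 63 of 67 changed 4-fold and 62 to 66 of 66 changed 8-fold. The simulation gave all groups the same replicate difference and all genes the same dispersion, a setting that favours the block. The count of 0 without the block therefore does not show that genes did not differ. VC+ and VC- libraries of a number share a D4 or D5 label, which pairs them; their replicate differences correlated at 0.914 across 11823 genes. No 2 libraries held identical values.

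The members, lists and tests were chosen with earlier results of these data known. Values per library are given for members called in any comparison or by the block, edgeR or DESeq2 fits, members without overlap and at least 5 CPM in the higher group, the 2 of most reads per family, and members with at most 3 reads in each library of 1 replicate set and over 5 CPM in the other; the text names the exceptions. Some genes, 2 of them members, are counted but not reported here by name or in the figures. In RefSeq (GRCr8), 20 of the 47 members overlap another gene span, Otx1, Six4 and Zfhx2 a protein-coding one. With the strand setting unknown, reads of such pairs cannot be told apart.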

Additional observations from a re-analysis of the deposited data

Results flagged for a closer look

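Some homeobox genes went opposite ways in the replicates, each beyond the counting error of its reads (exact 95% intervals of the read ratio exclude 1 on opposite sides). With 1 library per group in each replicate the difference between replicates was not tested. For VC+ over VC-, the CPM ratio was 0.603 in replicate 1 and 1.13 in replicate 2 for Irx1, 1.34 and 0.788 for Pbx3, and 1.18 and 0.849 for Pou6f1. For VC- over D0, Nkx6-2 was at 23.9 CPM in VC- against 0 reads in D0 cells of replicate 1 and had a ratio of 0.532 in replicate 2, and Pou6f1 had ratios of 0.824 and 1.27. For VC+ over D0, Nkx6-2 was at 14.6 CPM in VC+ against 0 reads in D0 cells of replicate 1 and had a ratio of 0.551 in replicate 2. Pbx3 had ratios of 2.24 and 0.795 and Tgif1 of 0.638 and 1.34 there.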

How the results depend on the processing

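Limma called 0 genes and 0 homeobox genes in the 3 comparisons of groups under every alternative with limma or edgeR, the replicate block included, and 0 to 0 with any 1 library left out. DESeq2 called 6 genes for VC+ minus VC-, 71 for VC- minus D0 and 137 for VC+ minus D0, and with the replicate block 32, 457 and 772. Homeobox genes among them numbered 0, 0 and 1, and with the block 0, 4 and 5. For comparisons with stem cells only the replicate number is shared, though replicate differences correlated at 0.73 and 0.688 across genes (VC- and VC+ with D0). Between replicates, 2971 genes and 24 homeobox genes were called, 0 to 5049 and 0 to 28 with 1 library left out; a group left with 1 library adds nothing to this difference. The cause of these shifts was not tested. The single values followed under the alternatives, those of the genes named for a comparison, kept their sign. With the block in DESeq2, Pou6f1, Six2 and Six3, near 0 between VC+ and VC- in limma (0.0047, 0.024 and 0.020), turned to -0.014, -0.029 and -0.19. Pax8 lost its call between replicates at pseudocounts of 0.1 and 2. Depth limits genes of few reads in replicate 1, such as Six2, Pax5 and Pax8.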
